A study of Mus musculus with 10 samples.

Results

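Ureteric bud lineage transcription factors were followed across mouse kidney cultures and adult cells, by taking from the deposited RNA-seq table every row whose gene name was *Pax2*, *Pax8*, *Gata3*, *Gata2*, *Lhx1*, *Emx2*, *Sall1* or *Tfap2a*. All 8 genes were found, each in a single row, among the 39273 genes listed, and all 8 passed the filter on low counts. The table holds 10 libraries in 5 groups of 2. UB organoids were grown from ureteric buds (UBs) of embryonic day 11 Wnt11-RFP +/- kidneys on a C57BL/6 x Swiss Webster background, in Matrigel and in a medium named mUBCM that holds GDNF, FGF9, RSPO1, the GSK3 inhibitor CHIR99021, the retinoid TTNPB and inhibitors of BMP, TGF-beta, JAK and p38 signalling, and were taken after 5, 10 or 20 days. CD organoids were UB organoids of day 10 that were moved to a differentiation medium without GDNF, which holds FGF9, aldosterone, vasopressin, a ROCK inhibitor, the Notch pathway inhibitor DAPT and the MEK inhibitor PD0325901. Adult mCD cells were sorted as Venus-positive cells from kidneys of Hoxb7-Venus mice aged 2 months, in which the *Hoxb7* promoter drives the reporter in the duct lineage. The sample labels of the adult libraries repeat the age and genotype of the embryos, and the series' design text was followed in their place. Nothing states that the 2 libraries of a group came from separate cultures or animals, so that p-values measure the spread between these libraries only.

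The ureteric bud is an epithelial outgrowth of the nephric duct that branches under GDNF signalling through the receptor RET and gives rise to the collecting duct system. PAX2 and PAX8 are paired-domain factors that specify the nephric lineage, and GATA3 acts downstream of them in the duct to maintain *Ret*. LHX1 is a LIM homeodomain factor needed for formation and extension of the duct, and EMX2 is a homeodomain factor without which the bud invades the mesenchyme but fails to branch. SALL1 is a zinc finger factor best known from the nephron progenitors that surround the bud, GATA2 is a related GATA factor that also acts in urogenital duct development, and TFAP2A belongs to the AP-2 family of ectodermal and epithelial regulators.

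The libraries held between 11913613 and 24536676 counts, so that 3 counts, taken here as the limit of detection, stood for 0.109 to 0.241 CPM (counts scaled to a common library size), and this limit covers counting error only. By depth and by Y-linked transcripts the libraries fell into 2 sets, while by *Xist* adult mCD stood apart within theirs. Libraries of days 5 and 10 held at least 22858971 counts each, 1 to 24 counts over 4 Y-linked genes (*Ddx3y*, *Eif2s3y*, *Kdm5d* and *Uty*) and *Xist* at 1970 to 2450 CPM. Libraries of day 20, of CD organoids and of adult mCD held at most 16759872 counts each and the Y-linked genes at 230 to 295 CPM, with *Xist* at 200 to 358 CPM in the organoids and at most 1.96 CPM in adult mCD. The CD organoid libraries therefore carried Y-linked transcripts that were nearly absent from the day 10 libraries, and differences between these groups cannot be told apart from a difference between the sets. The same holds for every other comparison of day 5 or day 10 with day 20, CD organoids or adult mCD, including the courses over UB culture below. Within the sets lay the comparisons of day 10 with day 5, of CD organoids with day 20, and of adult mCD with either of the latter. Adult mCD still differed from both of these in *Xist*, and in genotype and age.

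Markers of UB tips, of which there were 6, summed to 2160 to 3800 CPM in UB organoids, to 129 to 130 CPM in CD organoids and to 76.7 to 93.4 CPM in adult mCD. The 9 principal cell markers summed to 1340 to 1500 CPM in CD organoids and to 12500 to 13000 CPM in adult mCD, against 112 to 226 CPM in UB organoids. The 9 intercalated cell markers summed to 1980 to 2080 CPM in CD organoids and 2930 to 3040 CPM in adult mCD, against 0.367 to 6.61 CPM in UB organoids. Adult mCD also held markers of other kidney cells. All 10 proximal tubule markers were above 3 counts there and summed to 9260 to 11400 CPM, against 8.47 to 41.9 CPM in the organoids. All 5 loop of Henle markers summed to 3480 to 3680 CPM in adult mCD, against at most 13.1 CPM elsewhere, and all 8 endothelial markers to 971 to 989 CPM, against at most 10.3 CPM elsewhere. Podocyte markers, of which all 6 were above 3 counts, reached 361 to 434 CPM in adult mCD. No marker of these 4 lists was at 0 in adult mCD. How far these cells contributed to a level in adult mCD was not tested, and in bulk libraries fewer cells of a type and less RNA per cell cannot be told apart.

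**Figure D1:**
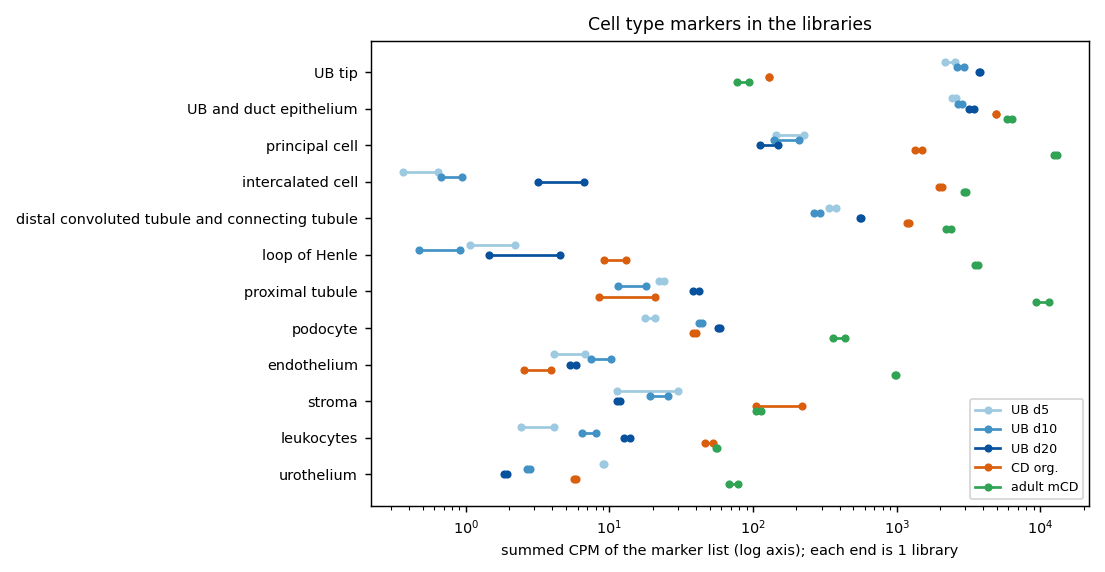
Summed CPM (log axis) of 12 lists of cell type markers in UB organoids (UB) of days 5, 10 and 20, CD organoids and adult mCD, where each bar joins the 2 libraries of a group. UB tip markers lay at 2160 to 3800 CPM in UB organoids and at most at 130 CPM elsewhere, and proximal tubule, loop of Henle and endothelial markers stood out in adult mCD.

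Since the members include factors that bind DNA by known short motifs, the 250 bases before each RefSeq start site of the members (GRCm38.p6) were searched on both strands for AGATAA, bound by GATA factors, TAATTA, bound by homeodomain factors, GTCACGC, taken from the paired-domain site, and GCCNNNGGC, bound by AP-2 factors, which reads the same on both strands. The 8 members had 14 such windows. A match to the AP-2 letters was present in 3 of the 14, those of *Gata3*, of the second start site of *Gata2* and of the second of *Pax2*, where 13.7% of the 32851 windows of all genes held it. TAATTA was in 1 of the 14 windows, at the *Tfap2a* start site listed first, and in 4.84% of all windows. AGATAA and GTCACGC were in 0 of the 14, and in 9.99% and 1.78% of all windows. The windows with AP-2 letters had a GC content of 70.0% (*Gata3*), 74.0% (*Gata2*) and 60.8% (*Pax2*), where the median over all windows was 52.4%. The shares over all windows are therefore not matched for GC content. The windows of *Gata3* and *Gata2* are shown because the ratio of these paralogs differed between CD organoids and adult mCD, and that of *Lhx1* because its transcripts were nearly absent from CD organoids. Each is written 5′ to 3′ on the strand of the gene, with AP-2 letters in capitals.
Gata3 (chr2:9878601-9878850, minus strand): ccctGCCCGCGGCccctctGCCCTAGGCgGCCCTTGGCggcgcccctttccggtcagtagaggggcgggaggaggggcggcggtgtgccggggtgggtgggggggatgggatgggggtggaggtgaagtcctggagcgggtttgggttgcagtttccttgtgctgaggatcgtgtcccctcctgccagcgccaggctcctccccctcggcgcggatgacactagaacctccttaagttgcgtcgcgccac
Gata2, second start site (chr6:88198414-88198663, plus strand): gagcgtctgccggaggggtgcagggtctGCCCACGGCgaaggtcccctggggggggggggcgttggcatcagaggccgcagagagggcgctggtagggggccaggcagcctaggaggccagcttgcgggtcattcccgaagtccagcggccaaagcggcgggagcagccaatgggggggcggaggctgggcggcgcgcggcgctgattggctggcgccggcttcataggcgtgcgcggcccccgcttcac
Lhx1 (chr11:84525535-84525784, minus strand): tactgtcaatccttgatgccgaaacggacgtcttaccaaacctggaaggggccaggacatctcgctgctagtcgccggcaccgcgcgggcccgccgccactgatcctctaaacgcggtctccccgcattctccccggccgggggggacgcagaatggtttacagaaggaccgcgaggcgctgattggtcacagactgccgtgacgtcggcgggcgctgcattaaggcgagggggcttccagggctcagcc
The *Gata3* window held 3 separate matches to the AP-2 letters and that of the second *Gata2* start site 1. The *Lhx1* window held none of the 4 motifs, and neither did that of the first *Gata2* start site, which is not printed. A match describes the letters only.

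Levels are given in CPM after TMM scaling, which serves to compare libraries for a given gene, and in CPM per kilobase of exon, which serves to compare genes. A gene is said to have risen or fallen where the adjusted p of edgeR's quasi-likelihood test, fitted across 24410 genes, was at most 0.05, and to be called where it was at most 0.01 with a change of more than 4-fold. All adjusted p-values below are from that test. Across the 5 groups, the group means of 4 members were at 36.4 CPM or more throughout (*Pax2*, *Gata3*, *Emx2* and *Tfap2a*), *Pax8* and *Gata2* were detected throughout and highest in adult mCD, and *Lhx1* and *Sall1* moved in opposite directions over the UB cultures, each with a group near the limit of detection.

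**Figure D2:**
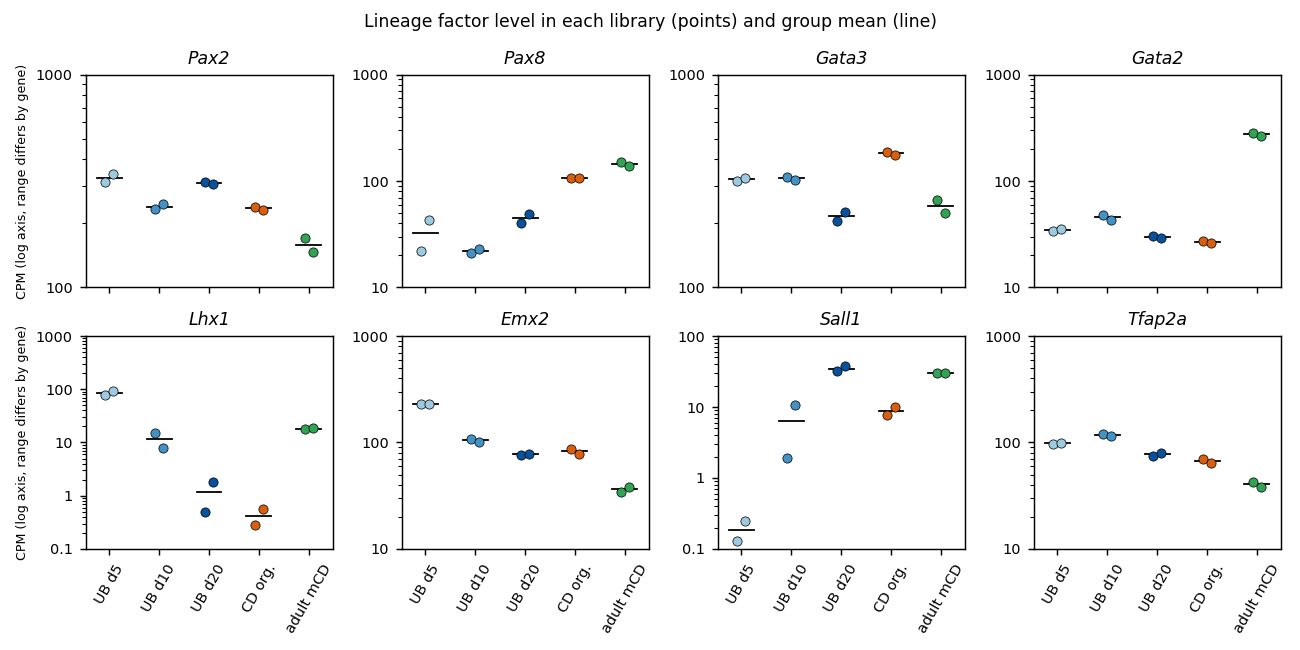
CPM (log axis, with a different range for each gene) of the 8 lineage factors in the 10 libraries, with a point for each library and a line at the mean of each group. *Lhx1* lay at 0.285 and 0.561 CPM in CD organoids and at 17.8 and 18.8 CPM in adult mCD, while *Pax2* stayed between 146 and 341 CPM in all 10 libraries.

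*Pax2* (chr19:44756045-44837871, plus strand, GRCm38) was expressed at a high level in every group. Its CPM was 314 and 341 at day 5, 233 and 246 at day 10, 312 and 305 at day 20, 239 and 232 in CD organoids, and 171 and 146 in adult mCD. The libraries of CD organoids overlapped with those of day 10, and those of adult mCD were below all others. From day 10 to CD organoids its log2 fold change was -0.02 ± 0.0821 (SE, adjusted p = 0.843), which turned to 0.03 with DESeq2. Within the set of day 20, CD organoids were lower, with a log2 fold change of -0.39 ± 0.0824 (SE, adjusted p = 0.00148). Adult mCD stood at -0.60 ± 0.083 against day 10 (SE, adjusted p = 2.3e-05), and CD organoids were higher than adult mCD by 0.57 ± 0.0835 (SE, adjusted p = 5.6e-05). In the order of levels, day 5 and day 20 did not differ past the threshold (adjusted p = 0.438), and neither did day 10 and CD organoids.

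*Gata3* (chr2:9857078-9890034, minus strand) was the most abundant member per length in 4 of the 5 groups. It was at 316 and 328 CPM at day 5, 332 and 319 CPM at day 10, and 206 and 227 CPM at day 20. In CD organoids it reached 433 and 419 CPM, above all other libraries, and in adult mCD it was at 258 and 223 CPM, a range that overlapped that of day 20. The gene rose from day 10 to CD organoids by 0.39 ± 0.082 on the log2 scale (SE, adjusted p = 0.00124), and from day 20 to CD organoids, within their set, by 0.98 ± 0.0832 (SE, adjusted p = 3.58e-07). CD organoids were 0.82 ± 0.0831 above adult mCD (SE, adjusted p = 1.62e-06). Days 5 and 10 did not differ past the threshold (adjusted p = 0.935), and neither did day 20 and adult mCD (adjusted p = 0.133), where the log2 fold change of 0.15 turned to -0.30 when libraries were scaled by their totals alone.

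*Tfap2a* (chr13:40715302-40738376, minus strand) was at 97.1 and 98.8 CPM at day 5 and at 121 and 116 CPM at day 10. It then stood at 75 and 79.9 CPM at day 20, at 70.1 and 63.9 CPM in CD organoids, and at 42.8 and 38 CPM in adult mCD. The groups did not overlap, and adult mCD was lowest. From day 10 to CD organoids its log2 fold change was -0.82 ± 0.0794 (SE, adjusted p = 1.09e-06), whereas against day 20 the value of -0.21 did not pass (adjusted p = 0.0556). Adult mCD stood at -1.55 ± 0.0825 against day 10 (SE, adjusted p = 1.15e-09).

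*Emx2* (chr19:59458372-59465357, plus strand) fell early in culture and again towards the adult. Its CPM was 232 and 228 at day 5, 109 and 100 at day 10, 76.8 and 77.9 at day 20, 87.7 and 78 in CD organoids, and 34.3 and 38.4 in adult mCD. From day 5 to day 10 the log2 fold change was -1.14 ± 0.0787 (SE, adjusted p = 3.61e-07), within their set. CD organoids differed from day 10 by -0.33 ± 0.0806 (SE, adjusted p = 0.00346) and did not differ from day 20 (0.10, adjusted p = 0.376). Adult mCD was at -1.52 ± 0.0854 against day 10 (SE, adjusted p = 1.98e-09) and at -2.66 ± 0.0867 against day 5 (SE, adjusted p = 8e-12), the latter being more than 4-fold. The antisense transcript *Emx2os*, which shares 264 exonic bases with *Emx2*, held 94 to 375 counts per library against 455 to 5589 for *Emx2*, and reads of the 2 genes cannot be told apart where the counting ignores strand.

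*Pax8* (chr2:24420560-24475599, minus strand) was the only member called higher in CD organoids than at day 10. It was at 21.9 and 43.4 CPM at day 5, 20.9 and 22.9 CPM at day 10, and 40.1 and 49.4 CPM at day 20. Both CD organoid libraries stood at 106 CPM, and the adult mCD libraries at 152 and 139 CPM, all above every UB organoid library. The rise from day 10 to CD organoids was 2.27 ± 0.219 on the log2 scale (SE, adjusted p = 1.07e-06), and within the set of day 20 it was 1.25 ± 0.213 (SE, adjusted p = 0.000265), which is under 4-fold. Adult mCD exceeded day 10 by 2.73 ± 0.22 (SE, adjusted p = 8.8e-08). CD organoids stood at -0.46 ± 0.204 against adult mCD, which did not pass the threshold (SE, adjusted p = 0.0798), although the libraries of these groups did not overlap. The value lay between -0.54 and -0.36 with a library left out, and between -0.51 and -0.06 under the other alternatives. Whether it passed depended on the setting. The libraries of day 5 were 513 and 1063 counts, so that the change from day 5 to day 10, -0.58 (adjusted p = 0.0602), became 0.01 without day 5 replicate 2.

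*Gata2* (chr6:88193891-88207032, plus strand) was low in all organoids and high in adult mCD. It was at 34 and 35.3 CPM at day 5, 47.7 and 43.3 CPM at day 10, 30.2 and 29.1 CPM at day 20 and 27.3 and 26 CPM in CD organoids, its lowest group. Adult mCD held 283 and 267 CPM, with no library of another group near. From day 10 to CD organoids its log2 fold change was -0.77 ± 0.0809 (SE, adjusted p = 2.51e-06), while CD organoids and day 20 did not differ past the threshold (-0.15, adjusted p = 0.173). Adult mCD exceeded day 10 by 2.60 ± 0.0764 (SE, adjusted p = 3.82e-12), and CD organoids stood at -3.37 ± 0.0825 against adult mCD (SE, adjusted p = 3.22e-12). GATA2 is also a factor of endothelial, mast and early blood cells. The 8 endothelial markers were at 971 to 989 CPM in adult mCD and 2.56 to 3.93 CPM in CD organoids, and the 6 mast cell and erythroid markers listed reached 14.1 to 23 CPM in adult mCD, where the mast cell gene *Cpa3* was at 0. Principal cell markers were also higher in adult mCD, at 12500 to 13000 CPM against 1340 to 1500 CPM in CD organoids. So were the markers of the proximal tubule and the loop of Henle. The part of any of these cells in the *Gata2* level was not tested.

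*Lhx1* (chr11:84518284-84525535, minus strand) was lower at each later day of the UB cultures, of which day 20 lies in the other set, and was at 4 and 7 counts in the CD organoid libraries. These counts stand for 0.285 and 0.561 CPM, just above the limit of detection. The UB libraries held 77 and 92.9 CPM at day 5, 15.3 and 7.73 CPM at day 10 and 0.486 and 1.85 CPM at day 20, so that day 20 overlapped with CD organoids and each earlier day lay apart. Undifferentiated UB organoids of day 20 were thus low as well, and CD organoids stood at -1.35 ± 0.779 against them, which did not pass the threshold (SE, adjusted p = 0.196). Within the set of days 5 and 10, the log2 fold change was -2.88 ± 0.266 (SE, adjusted p = 3.74e-06). From day 10 to CD organoids it was -4.62 ± 0.515 (SE, adjusted p = 4.44e-06), with values between -5.08 and -4.03 when a library was left out, the smallest fall without day 10 replicate 1.

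In adult mCD *Lhx1* was at 17.8 and 18.8 CPM, above the libraries of day 20 and CD organoids and below those of day 5. Against adult mCD, CD organoids stood at -5.29 ± 0.502 (SE, adjusted p = 9.04e-07), and adult mCD exceeded day 20 by 3.94 ± 0.406 (SE, adjusted p = 1.31e-06), or by 3.27 without day 20 replicate 1 and 5.09 without day 20 replicate 2. Adult mCD and day 10 did not differ past the threshold (0.67, adjusted p = 0.0521), although the value was 1.26 (adjusted p = 2.57e-05) without day 10 replicate 1. LHX1 is also a factor of forming nephrons. Markers of the loop of Henle, proximal tubule and distal tubule were highest in the same adult libraries, and their part in the *Lhx1* level was not tested.

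*Sall1* (chr8:89027235-89044162, minus strand) moved in the opposite direction in UB culture. Its counts were 3 and 6 at day 5, or 0.128 and 0.245 CPM, 48 and 296 at day 10, or 1.90 and 10.8 CPM, and 524 and 572 at day 20, or 31.8 and 37.8 CPM. CD organoids held 7.76 and 10 CPM and adult mCD 30.3 and 30 CPM. Day 5 lay below all other groups, and CD organoids fell inside the spread of the day 10 libraries. Within the set of days 5 and 10 the log2 fold change was 4.74 ± 0.779 (SE, adjusted p = 0.000391), which was 2.99 without day 10 replicate 2, 5.46 without day 10 replicate 1 and 3.87 with a prior count of 5 instead of 1. Within the set of day 20, CD organoids were lower, with a log2 fold change of -1.97 ± 0.455 (SE, adjusted p = 0.00289). CD organoids and day 10 did not differ past the threshold (0.46, adjusted p = 0.457), and this value became -0.27 without day 10 replicate 1 and 2.20 without day 10 replicate 2. From day 10 to day 20, which lie in different sets, the change was 2.43 ± 0.443 (SE, adjusted p = 0.00107), or 1.71 without day 10 replicate 1 and 4.18 without day 10 replicate 2.

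Adult mCD were higher in *Sall1* than day 10, with a log2 fold change of 2.22 ± 0.446 (SE, adjusted p = 0.000618), but the call was lost with library totals alone (1.74), with only the 2 groups compared (2.18, adjusted p = 0.0103) and without day 10 replicate 1 (1.51). Adult mCD and day 20 did not differ in *Sall1* past the threshold (adjusted p = 0.703), and CD organoids stood at -1.76 ± 0.459 against adult mCD (SE, adjusted p = 0.00561). Since SALL1 marks nephron progenitors, a list of 10 markers of nephron progenitors and the early nephron was read beside it. In UB organoids these 10 markers summed to 72.4 to 91.5 CPM at day 5 and to 92.5 to 92.6 CPM at day 20. They summed to 185 to 197 CPM in CD organoids and to 275 to 287 CPM in adult mCD. There *Wnt4*, *Jag1* and *Dll1* were at 96.7, 57.5 and 34.9 CPM in CD organoids and at 30.4, 194 and 52.9 CPM in adult mCD. *Six2*, *Osr1*, *Meox1* and *Cited1* were at most at 0.374 CPM in CD organoids and at most at 2.69 CPM in adult mCD. From day 5 to day 20, 1 of the 8 that passed the filter on low counts was called higher, *Eya1*, and 2 lower, where 8.61% of all genes were called, *Cited1* from 4.36 to 0.221 CPM and *Meox1* from 0.917 to 0.0303 CPM. *Six2*, the defining factor of nephron progenitors, was at 0.0826 ± 0.0564 CPM (SD, n = 2) at day 5 and at a mean of 0.259 CPM at day 20, and *Osr1* was at 0 at day 20. *Eya1*, a transcriptional coactivator on the same list, was also higher at each later day of UB culture, at 1.22 CPM at day 5, 7.74 CPM at day 10 and 16.9 CPM at day 20, and was at 1.34 CPM in CD organoids and 0.388 CPM in adult mCD.

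Counted over the comparisons, 2 of the 8 members were called between days 5 and 10, where 3.41% of all genes were, with *Sall1* higher and *Lhx1* lower. The same 2 genes, in the same directions, were called between days 10 and 20 (3.39% of all genes) and between days 5 and 20 (8.61%), comparisons that cross the sets. With the looser rule, an adjusted p up to 0.05 and no limit on the fold, these comparisons gave 6, 8 and 6 of the 8 members, where 32.7%, 29.0% and 45.1% of all genes passed. In CD organoids against day 10, 2 members were called (10.7% of all genes), *Pax8* higher and *Lhx1* lower, and 6 passed the looser rule (47.2%). Against day 20, 0 were called (9.46%) and 4 passed the looser rule (42.2%), *Gata3* and *Pax8* being higher and *Pax2* and *Sall1* lower. Adult mCD differed from day 10 in 3 called members (22.5%), *Gata2*, *Pax8* and *Sall1*, all higher, the call of *Sall1* being lost under the settings named above, and in 7 by the looser rule (61.8%). From day 20 it differed in 2 called members (19.2%), *Gata2* and *Lhx1*, both higher, and in 6 by the looser rule (56.4%). CD organoids were below adult mCD in 2 called members (14.3%), again *Gata2* and *Lhx1*, and 7 passed the looser rule (49.9%). The comparisons share libraries. Beside backgrounds of 10.7% to 22.5%, 2 or 3 of 8 members called is not a result about the members as a set. The median log2 fold change of the members was -0.18 in CD organoids against day 10, where that of all genes was -0.15, and 0.12 in adult mCD against day 10, where that of all genes was -0.21.

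**Figure D3:**
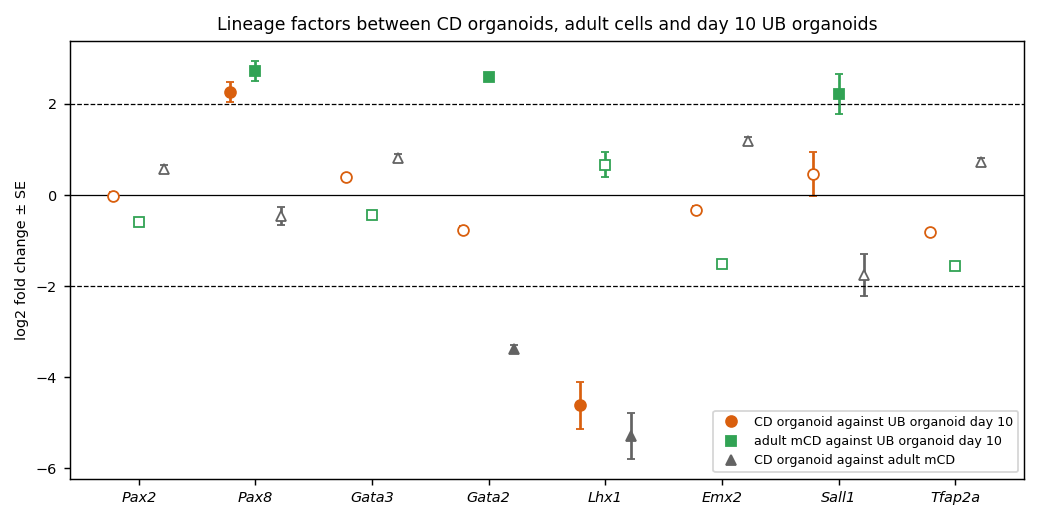
Log2 fold changes of the 8 lineage factors with approximate standard errors, for CD organoids and adult mCD against UB organoids of day 10 and for CD organoids against adult mCD, where filled symbols mark called genes and dashed lines a change of 4-fold. *Pax2*, *Gata3*, *Emx2* and *Tfap2a* lay between the dashed lines in all 3 comparisons, while *Gata2* and *Lhx1* separated CD organoids from adult mCD.

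The balance between paralogs was read within each library, per length, so that no scaling between libraries enters. *Pax2* exceeded *Pax8* by 6.93 to 16.1 times in the 6 UB organoid libraries, by 2.53 and 2.45 times in CD organoids and by 1.26 and 1.18 times in adult mCD. The 3 sets of libraries did not overlap, and the balance moved towards *Pax8* in CD organoids and further in adult mCD. *Gata3* exceeded *Gata2* by 9.25 to 12.6 times in UB organoids and by 21.6 and 21.9 times in CD organoids, but by 1.24 and 1.13 times in adult mCD. The GATA balance thus stood on opposite sides of the UB range in CD organoids and in adult mCD. Per length the levels in CD organoids were 107 ± 2.5 CPM per kb for *Gata3*, 43.6 ± 0.905 for *Pax2*, 27.6 ± 2.26 for *Emx2*, 17.5 ± 0.0525 for *Pax8*, 13.7 ± 0.896 for *Tfap2a*, 4.93 ± 0.168 for *Gata2*, 1.69 ± 0.304 for *Sall1* and 0.104 ± 0.048 for *Lhx1* (CPM per kb, SD, n = 2 each). In adult mCD *Gata3* was at 60.5 ± 6.3 CPM per kb, *Gata2* at 51 ± 2.09, *Pax2* at 29.3 ± 3.25 and *Pax8* at 24 ± 1.53 (CPM per kb, SD, n = 2 each). The adult libraries of *Gata3*, at 65 and 56 CPM per kb, lay above those of *Gata2*, at 52.5 and 49.5 CPM per kb.

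Other genes of the same families were taken from a list of 26, of which 17 passed the filter on low counts. In CD organoids against day 10, 0 of the 17 were called higher and 7 lower, where 4.96% and 5.71% of all genes were, with a median log2 fold change of -1.95 against -0.15 over all genes. The 7 were *Pax3*, *Pax5*, *Lhx9*, *Lhx4*, *Sall4*, *Tfap2c* and *Emx1*, and of these *Sall4*, *Tfap2c* and *Pax3* exceeded 2 CPM at day 10. In CD organoids against day 20, 2 were called, *Pax3* and *Tfap2c*, both lower, where 4.74% of all genes were higher and 4.73% lower. In adult mCD against day 10, where 13.4% of all genes were called higher and 9.1% lower, 5 were called higher (*Gata6*, *Gata5*, *Sall3*, *Tfap2b* and *Emx1*) and 7 lower (*Lhx2*, *Pax3*, *Lhx9*, *Lhx6*, *Sall4*, *Tfap2c* and *Sall2*). Of these, *Gata5*, *Lhx9* and *Lhx2* were near the limit of detection, at means of 0.0563, 0.551 and 0.688 CPM at day 10. In adult mCD they were at 0.962, 0 and 0.115 CPM.

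In the EMX and TFAP2 families a paralog was at its highest in adult mCD, where the member was at its lowest. *Emx1*, the paralog of *Emx2*, was at a mean of 0.81 CPM at day 5, 0.856 at day 10, 0.19 at day 20 and 0.147 in CD organoids, and at 33.6 ± 2.52 CPM (SD, n = 2) in adult mCD, which was 5.21 ± 0.225 above day 10 on the log2 scale (SE, adjusted p = 1.41e-10). Per length *Emx1* was then at 15.4 CPM per kb beside 12.1 CPM per kb for *Emx2*. *Tfap2b* was at 38.2 CPM at day 5 and 14 CPM in CD organoids, and at 138 ± 1.9 CPM (SD, n = 2) in adult mCD, so that per length it exceeded *Tfap2a* in adult mCD, 21.7 against 8.25 CPM per kb, and was below it in each organoid group. *Tfap2b* is known from the distal nephron, whose 6 markers summed to 2210 to 2390 CPM in adult mCD and to 1180 to 1220 CPM in CD organoids. In CD organoids *Calb1*, listed here for duct epithelium too, was at 841 CPM and *Slc8a1* at 352 CPM. There *Slc12a3*, *Pvalb*, *Trpm6* and *Trpv5* were at only 0.864, 0.0356, 1.17 and 1.49 CPM, against 416, 52.1, 21.4 and 116 CPM in adult mCD. The part of distal nephron cells was not tested.

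Among the spalt genes, *Sall4*, a factor of pluripotent and embryonic cells, was at 19.1 ± 1.35 CPM (SD, n = 2) at day 5 and 2.33 CPM at day 10, its log2 fold change being -3.01 ± 0.223 (SE, adjusted p = 1.19e-06), and was at 0 counts in adult mCD. *Sall2* was at 94.5 CPM at day 5, 71 at day 10, 54.9 at day 20, 18.3 in CD organoids and 7.64 in adult mCD. From day 20 to CD organoids, within their set, *Sall2* had a log2 fold change of -1.58 ± 0.114 (SE, adjusted p = 7.46e-08). *Tfap2c* went from 32.1 CPM at day 5 to 0.57 CPM in CD organoids, with log2 fold changes of -2.09 ± 0.319 from day 10 to day 20 (SE, adjusted p = 0.000282) and of -2.04 ± 0.51 from day 20 to CD organoids (SE, adjusted p = 0.00487).

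**Figure D4:**
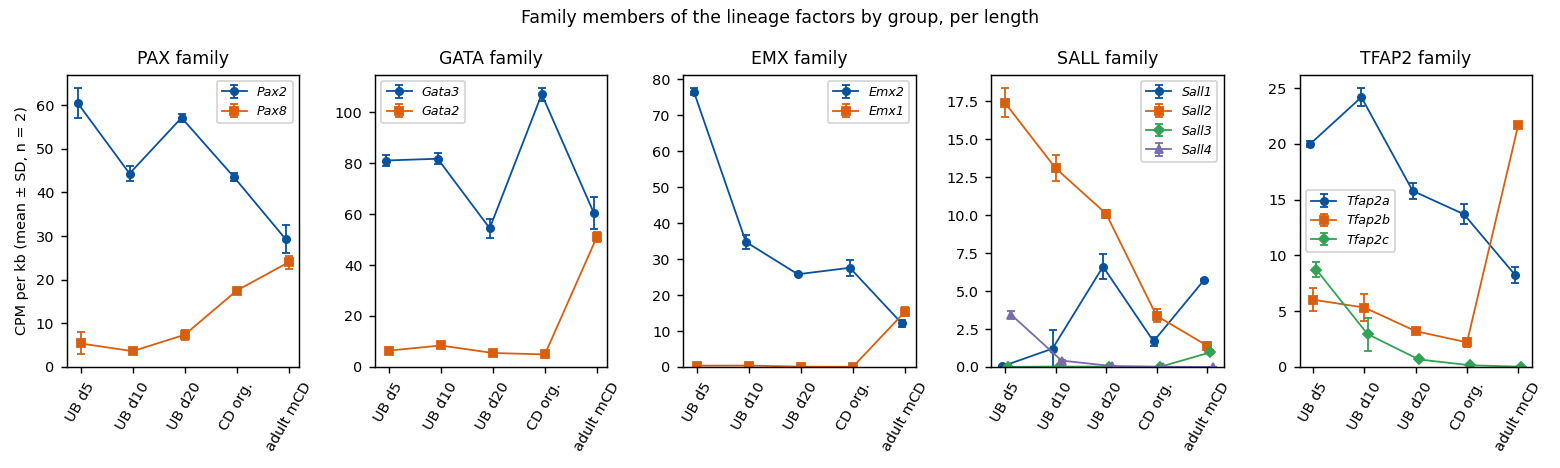
CPM per kb of exon (mean ± SD, n = 2) of the members and selected paralogs in UB organoids (UB) of days 5, 10 and 20, CD organoids and adult mCD, in a panel for each family. In adult mCD *Pax8*, *Gata2*, *Emx1* and *Tfap2b* were at their highest, and *Sall2*, *Sall4* and *Tfap2c* were highest at day 5.

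Partners and cofactors of the members were described from a list of 25, all of which passed the filter. In CD organoids against day 10, 1 was called and it was lower, where 10.7% of all genes were called in either direction. It was *Eya1*, with a log2 fold change of -2.47 ± 0.378 (SE, adjusted p = 8.78e-05). The list had a median of -0.26 against -0.15 over all genes. *Paxip1*, the PAX2 partner that recruits a histone H3K4 methyltransferase, was at 70.8 CPM at day 10, 38.2 CPM in CD organoids and 35.1 CPM in adult mCD. *Ldb1*, the bridge protein of LHX1, was at 260 CPM at day 10 and 203 CPM in CD organoids, and so was present where *Lhx1* was nearly absent. *Ldb2*, its paralog, was at most at 0.546 CPM in the organoid group means and at 15.1 CPM in adult mCD, with a value of -5.02 ± 0.445 on the log2 scale for CD organoids against adult mCD (SE, adjusted p = 4.54e-07). Of the groucho corepressors, *Tle3* fell from 141 CPM at day 5 to 28 CPM at day 10 and was at 257 CPM in adult mCD, whereas *Tle1* was at 264 CPM at day 10 and 35.6 CPM in adult mCD.

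Genes listed as targets or dependent genes of the ureteric bud, 13 in all, were mostly lower in CD organoids than in UB organoids. The CD organoid medium also lacked GDNF and held the MEK inhibitor PD0325901. The part of the medium or of the lineage factors in these levels was not tested. Against day 10, 0 of the 13 were called higher and 6 lower, where 4.96% and 5.71% of all genes were, *Ret*, *Gfra1*, *Wnt11*, *Etv4*, *Etv5* and *Cxcr4*, with a list median of -0.89 against -0.15 over all genes. With the looser rule 10 were lower and 2 higher, where 47.2% of all genes passed in either direction. The 2 were *Cdh1*, which encodes E-cadherin, and *Met*, the HGF receptor gene, with log2 fold changes of 1.46 and 1.29. Within the set of day 20, 6 of the 13 were called lower and 0 higher (4.73% and 4.74% of all genes), *Spry1* in place of *Cxcr4*, with a median of -1.73 against 0.00. *Ret*, the GDNF receptor gene, fell from 1480 CPM at day 10 to 16.6 CPM in CD organoids, with a fitted change of -6.48 ± 0.397 on the log2 scale (SE, adjusted p = 1.18e-08), while *Gata3* and *Pax2* were at 426 and 236 CPM in the same CD organoids. *Wnt11*, a tip ligand, was at 151 CPM at day 10, at 21 CPM at day 20 and at 0.405 CPM in CD organoids. In adult mCD against day 10, 0 were called higher and 6 lower, where 13.4% and 9.1% of all genes were, and *Fgfr2* stood in the place of *Cxcr4*. *Wnt9b*, a ligand of the stalk, was at 52.1 CPM at day 10, 27.9 CPM in CD organoids and 64.3 CPM in adult mCD, and *Cdh1* at 742, 2040 and 1610 CPM.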

How the data were processed

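Poly(A) RNA of 10 libraries was sequenced. Per the labels and the study's methods, the authors trimmed the reads, aligned them with STAR to mm10 and assigned them to GENCODE M24 genes in Partek Flow with an expectation-maximisation model. The submitters' processing notes also name FastQC 0.11.8, cutadapt 2.5, Trimmomatic 0.36 and edgeR 3.28.1, without roles. The deposited table gives whole-number counts, RPKM values made by the authors from those counts, and scaled counts, a signal that the authors call TMM values. The length column behind the deposited RPKM was within 1% of the summed exons of all transcripts for 95.6% of genes and within 1% of their union for 49% of genes, so that *Tfap2a* was divided by 3.773 times its union length and *Sall1* by 1.001 times. Levels between genes were therefore given as CPM per kb of the GENCODE M21 exon union (GRCm38), which holds 99.7% of the identifiers. Kits are named differently in the labels and the methods, and whether the counting used strand is not given in the sources used here.

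Counts were tested with edgeR 4.0.16 (R 4.3.3), by the quasi-likelihood test with TMM factors of 0.792 to 1.118, Benjamini-Hochberg adjustment and 1 as the prior count, in 1 fit of 5 group means over all 10 libraries. The 24410 genes with a summed count of at least 10 were tested, and a call needed more than 4-fold change and an adjusted p up to 0.01, the study's thresholds. The common dispersion was 0.00831. Standard errors are the log2 fold change divided by the square root of the F statistic and are approximate. On simulated data with 200 changed genes among 23759, for CD organoids against day 10, 198 were recovered with 1 false call. The changes were all 3 in size on the log2 scale, in genes above a minimum mean level, and no other gene differed between groups. Smaller changes, genes near the limit of detection and groups of unequal spread were thus not tested. Replicates differed by more than counting noise in every group, so that none was counted as a duplicate. The chi-square per degree of freedom was 25.4 at day 10 and 10.7 at day 5. It was 2.88 at day 20, 2.72 in CD organoids and 4.97 in adult mCD. The fit used the same estimate of spread for a gene in all groups, although the groups differed in this way. Comparisons of CD organoids and adult mCD with day 5 were added after seeing the data. Alternatives used DESeq2 1.42.0 and, for the deposited TMM values, limma 3.58.1. The members, lists and rules were chosen with earlier results of these data known, and genes that are not reported here were later left out of the lists, their counts and sums. Genes named were the members, called members of the lists and the 3 genes most like each member, while others on the lists were named after their values were seen. Tables were handled in Python 3.11.15 with pandas 2.3.3 and numpy 2.4.6, and figures drawn with matplotlib 3.10.9.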

Additional observations from a re-analysis of the deposited data

How the results depend on the processing

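Of 1216 log2 fold changes of members under the alternatives, 1153 kept their direction and were called or not as before. A further 43 were newly called, 6 were no longer called and 14 changed sign. Most of the 43 came from the looser rule, which reads the same fit at another threshold and so cannot change a sign. Many of the fits with a library left out dropped a library of neither group compared. The changes of sign were all of values that were not called. For *Pax2* in CD organoids against day 10 the value became 0.03 with DESeq2, and lay between -0.05 and 0.03 over the left-out libraries, while between days 5 and 20 it became 0.03 when scaled by library totals and in limma, which used the deposited TMM values. For *Gata3* in adult mCD against day 20 it became -0.30 with both of these and lay between -0.02 and 0.24 with a library left out, its range from day 5 to day 10 being -0.02 to 0.04. *Sall1* in CD organoids against day 10 lay between -0.27 and 2.20 with a library left out, the lowest without day 10 replicate 1 and the highest without day 10 replicate 2, and *Pax8* from day 5 to day 10 between -0.97 and 0.01, without day 5 replicates 1 and 2. The 6 lost calls were all of *Sall1*. In adult mCD against day 10 it was at 1.74 with library totals alone, at 2.18 (adjusted p = 0.0103) with only the 2 groups compared and at 1.51 without day 10 replicate 1. From day 10 to day 20 it was at 2.47 (adjusted p = 0.0236) with only the 2 groups compared, at 1.71 without day 10 replicate 1 and at 2.30 (adjusted p = 0.0136) without day 20 replicate 2.

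The number of members called depended mainly on the threshold. With the looser rule (adjusted p up to 0.05) it was 6 instead of 2 from day 5 to day 10, 8 instead of 2 from day 10 to day 20, 6 instead of 2 from day 5 to day 20, 6 instead of 2 and 4 instead of 0 for CD organoids against days 10 and 20, 7 instead of 3 and 6 instead of 2 for adult mCD against days 10 and 20, and 7 instead of 2 for CD organoids against adult mCD. Without a filter on low counts and with library totals alone, 1 member was called in CD organoids against day 20, *Sall1* at -2.01 and -2.03. With limma, 5 were called in adult mCD against day 10, *Emx2* and *Tfap2a* having passed 4-fold at -2.01 and -2.04, as they did with library totals alone, where 4 were called without *Sall1*, and with only the 2 groups compared 1 was called from day 10 to day 20. With a library left out, the number lay between 1 and 2 from day 10 to day 20, between 2 and 3 for CD organoids against day 10, between 0 and 1 against day 20, between 2 and 3 for adult mCD against day 10, and at 2 in the other 4 comparisons. Where a left-out library leaves a group with 1 sample, that sample is assumed to vary like the others. Over all genes, a prior count of 5 gave 518 calls instead of 832 from day 5 to day 10 and 548 instead of 828 from day 10 to day 20, and the looser threshold between 7083 and 15080 instead of 828 to 5494.

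Scaling by library totals alone moved the median of all genes by -0.43 and -0.41 in adult mCD against days 10 and 20, by 0.34 in CD organoids against adult mCD and by 0.14 from day 5 to day 10. The share of called genes that were higher then went from 59.6% to 44.5%, from 64.1% to 50.5%, and from 31.4% to 44.4% in the 3 comparisons with adult mCD, and with limma to 41%, 50% and 45.7%. Samples with the same replicate number did not deviate together, with correlations of -0.102 to 0.093 over 10 pairs of groups and 14688 genes. A replicate block changed no call of a member, and *Sall1* from day 5 to day 10 was then at 4.65. Depth limits *Lhx1* in CD organoids and *Sall1* at day 5, where libraries held 3 to 7 counts.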

Other observations

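Other transcription factors of the bud and duct, a list of 19, all passed the filter on low counts. In CD organoids against UB organoids of day 10, 3 were called higher, *Tfcp2l1*, *Foxi1* and *Dmrt2*, and 3 lower, *Sox8*, *Mycn* and *Irx1*, where 4.96% and 5.71% of all genes were. *Irx1* was close to the limit of detection before, at means of 0.341 CPM at day 10 and 0.474 CPM at day 20, and at 0 in CD organoids. Against day 20, 5 were called higher, with *Elf3* and *Elf5* added, and the same 3 lower (4.74% and 4.73% of all genes), with medians of 0.63 and 0.56 beside -0.15 and 0.00 over all genes. *Tfcp2l1*, a factor of collecting duct cell fate, was at 236 CPM at day 10, 93.8 CPM at day 20, 2460 CPM in CD organoids and 1320 CPM in adult mCD. *Foxi1*, the master factor of intercalated cells, was at 490 CPM in CD organoids and 169 CPM in adult mCD, and below 1 CPM in every UB organoid group mean. *Dmrt2* was at 133 CPM in CD organoids and 25.6 CPM in adult mCD. *Hnf4a*, a proximal tubule factor, was at 276 CPM in adult mCD and at most at 0.312 CPM in the organoid group means, beside the proximal tubule markers described above.

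*Mycn*, a factor of proliferating embryonic tip cells, had a course like that of *Lhx1*. It was at 63.9 CPM at day 5, 13.4 CPM at day 10, 2.52 CPM at day 20, 0.485 CPM in CD organoids and 13 CPM in adult mCD. Among 10538 genes with a mean of at least 10 CPM, *Znrd1*, *Mycn* and *Fjx1* followed *Lhx1* most closely over the 10 libraries, with Pearson's r of 0.99, 0.983 and 0.983 on log2(CPM + 1). The most alike gene was *Tmem170b* for *Pax2* (0.984), *Cnst* for *Pax8* (0.984), *Lnx2* for *Gata3* (0.977), *Slc27a2*, a gene of the proximal tubule, for *Gata2* (0.996), *Wiz* for *Emx2* (0.992), *Purb* for *Sall1* (0.991) and *Trappc1* for *Tfap2a* (0.989). Next in order came *Ibtk* and *Cramp1l* for *Pax2*, *Rragc* and *Foxred1* for *Pax8*, *Ints6l* and *Bmf* for *Gata3*, *Zc2hc1c* and *Cspg4* for *Gata2*, *Usp48* and *Amz2* for *Emx2*, *Cdc42bpa* and *Mindy3* for *Sall1*, and *Rbmx* and *Lingo1* for *Tfap2a*, with r of 0.961 to 0.996. These values describe 10 libraries that fall into 5 groups and share their depth within a group.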
